A study of Rattus norvegicus with 4 samples.

Results

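Oligodendrocyte lineage genes were read in cultures of rat cortical astrocytes that had or had not been grown together with mouse hippocampal neurons. The set holds 9 named genes: the lineage transcription factors Olig1, Olig2 and Sox10, the progenitor surface proteins Pdgfra and Cspg4, the genes Gpr17 and Bcas1 of committed and premyelinating cells, and the myelin genes Mbp and Cnp. A probe was taken for a member when its gene name in the scanner files was that of the member, or when its accession was a RefSeq transcript of it. By this rule 8 of the 9 genes had a probe, 10 probes in all out of 41012, and Gpr17 had none. Of these 10 probes, 8 passed the filter on dim probes, and 7 genes were tested among 21361: Olig2, which was dim in every RNA, was not among them.

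Astrocytes came from the cortex of Wistar rat pups 1 day after birth, and neurons from the hippocampus of mouse embryos of embryonic day 18. CC is the whole co-culture, CC-CJ is co-culture after cold jet, in which a stream of ice-cold buffer detaches neurons from the astrocyte layer, and AA-CJ is astrocytes that were cultured alone, without neurons, and given the same cold jet. The labels carry no mutation or drug treatment in any group. Each of the 4 arrays compared 2 RNAs. The Cy3 label went to CC-CJ throughout. Cy5 went to AA-CJ on 2 arrays and to CC on the other two. Replicates came from different pools of animals, and 2 arrays per comparison limit the precision. Whether the CC-CJ RNA of an AA-CJ array was also used on a CC array is not given in the sources used here, so that the 4 CC-CJ channels may hold fewer than 4 separate RNAs.

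Oligodendrocytes are the glial cells that wrap axons of the central nervous system in myelin. They arise from progenitor cells that carry the receptor PDGFRα and the proteoglycan NG2, which is the product of Cspg4, and that use OLIG1, OLIG2 and SOX10 to set their fate. When a progenitor commits to differentiation it lowers PDGFRα and NG2, passes through a premyelinating stage in which Gpr17 and Bcas1 are expressed, and then makes myelin proteins such as MBP and CNP. Cultures of cortical astrocytes from young rodents are known to hold some cells of this lineage beside astrocytes. Pdgfra is also known in fibroblasts of the meninges, Cspg4 in mural cells of vessels, and Sox10 in Schwann cells.

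Since neurons were of mouse and astrocytes of rat, mouse mRNA was read by probes made for rat, and how well it bound them was not tested. Between 50.1% and 62.6% of the probes were well above background per channel, and 0 to 4 spots per channel were saturated. M is log2 of Cy3 over Cy5 after background correction and intensity-dependent normalization within an array, so that a positive M is a higher value in CC-CJ. A level is the normalized log2 intensity of 1 channel. The lowest level that was still well above background was 5.96 to 6.24, depending on the channel. There was no dye swap, and in CC-CJ versus AA-CJ and CC-CJ versus CC the dye and the condition cannot be told apart. The difference of CC and AA-CJ was taken through CC-CJ, both RNAs were in Cy5, and a dye effect common to all arrays cancels in it. It shares its arrays with both other comparisons. In such bulk RNA, fewer cells of a type and less RNA per cell cannot be told apart.

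Sox10 had its highest levels in whole co-culture. Its product is a transcription factor that oligodendrocyte cells carry from progenitor to mature cell. It was read by 1 probe (rn4, chr7:117138840-117138899). The level of Sox10 was 7.58 and 8.27 in the 2 CC samples, 6.67 and 6.78 in the 2 AA-CJ samples, and 6.69, 6.81, 6.91 and 6.71 in the 4 CC-CJ channels. Both CC samples were above all others, whereas the ranges of AA-CJ and CC-CJ overlapped, and 1 of the 4 CC-CJ values was not well above background.

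Sox10 fell in CC-CJ versus CC, with M of -0.68 and -1.56 on the 2 arrays. The log2 difference was -1.12 (SE 0.187, 2.17-fold lower, n = 2 arrays), with an adjusted p of 0.0336 in limma after Benjamini-Hochberg adjustment over all genes tested. The larger M was on the array where CC-CJ was not well above background, so that its size is uncertain. This call rested on CC replicate 2: without it the difference was -0.68, and limma gave an adjusted p of 0.0769. It was also lost with the replicate number as a block (adjusted p of 0.0510 in limma), with no background correction and with Agilent's own log ratio. Against AA-CJ, M of Sox10 in CC-CJ was 0.02 and 0.03, and the 95% interval of the difference ran from -0.42 to 0.47. In CC versus AA-CJ the difference was 1.14 (SE 0.265, 2.21-fold), which did not pass in limma (adjusted p of 0.0899). It passed without CC replicate 1, at 1.58 with an adjusted p of 0.00179 in limma, whereas without CC replicate 2 it was 0.70 with an adjusted p of 0.101. With a replicate left out, in each fit of this kind, the lone array is assumed to vary like those of the other comparison, which give the spread.

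Olig1, a lineage transcription factor that progenitors already carry, had values in the same order, with a larger spread between samples. It was read by 1 probe (rn4, chr11:31246213-31246272). The level of Olig1 was 9.48 and 10.01 in CC, 8.64 and 9.34 in AA-CJ, and 9.13, 8.99, 9.18 and 9.01 in CC-CJ. Both CC samples were above every other sample, and the 4 CC-CJ channels lay between both AA-CJ samples. M of Olig1 was -0.303 and -0.998 in CC-CJ versus CC, with a difference of -0.65 (SE 0.224) that did not pass in limma (adjusted p of 0.226). With the replicate number as a block, this adjusted p was 0.0468 in limma. M was 0.49 and -0.34 in CC-CJ versus AA-CJ, where both arrays had opposite signs. Between CC and AA-CJ the difference was 0.72 (95% interval -0.03 to 1.48, adjusted p of 0.301 in limma). With 1 replicate left out it was 0.31 without AA-CJ replicate 1, 1.14 without AA-CJ replicate 2 and 0.38 without CC replicate 2.

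Olig2 is the factor without which the lineage does not form, and its probe (rn4, chr11:31206908-31206967) was not well above background on any array. Its values were 6.05 and 6.24 in CC, 6.16 and 6.17 in AA-CJ, and 6.06 to 6.21 in CC-CJ, all of them in the range where dim probes end. These values give no order of the RNAs for Olig2. Gpr17, a receptor of committed cells, was not measured here.

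**Figure D1:**
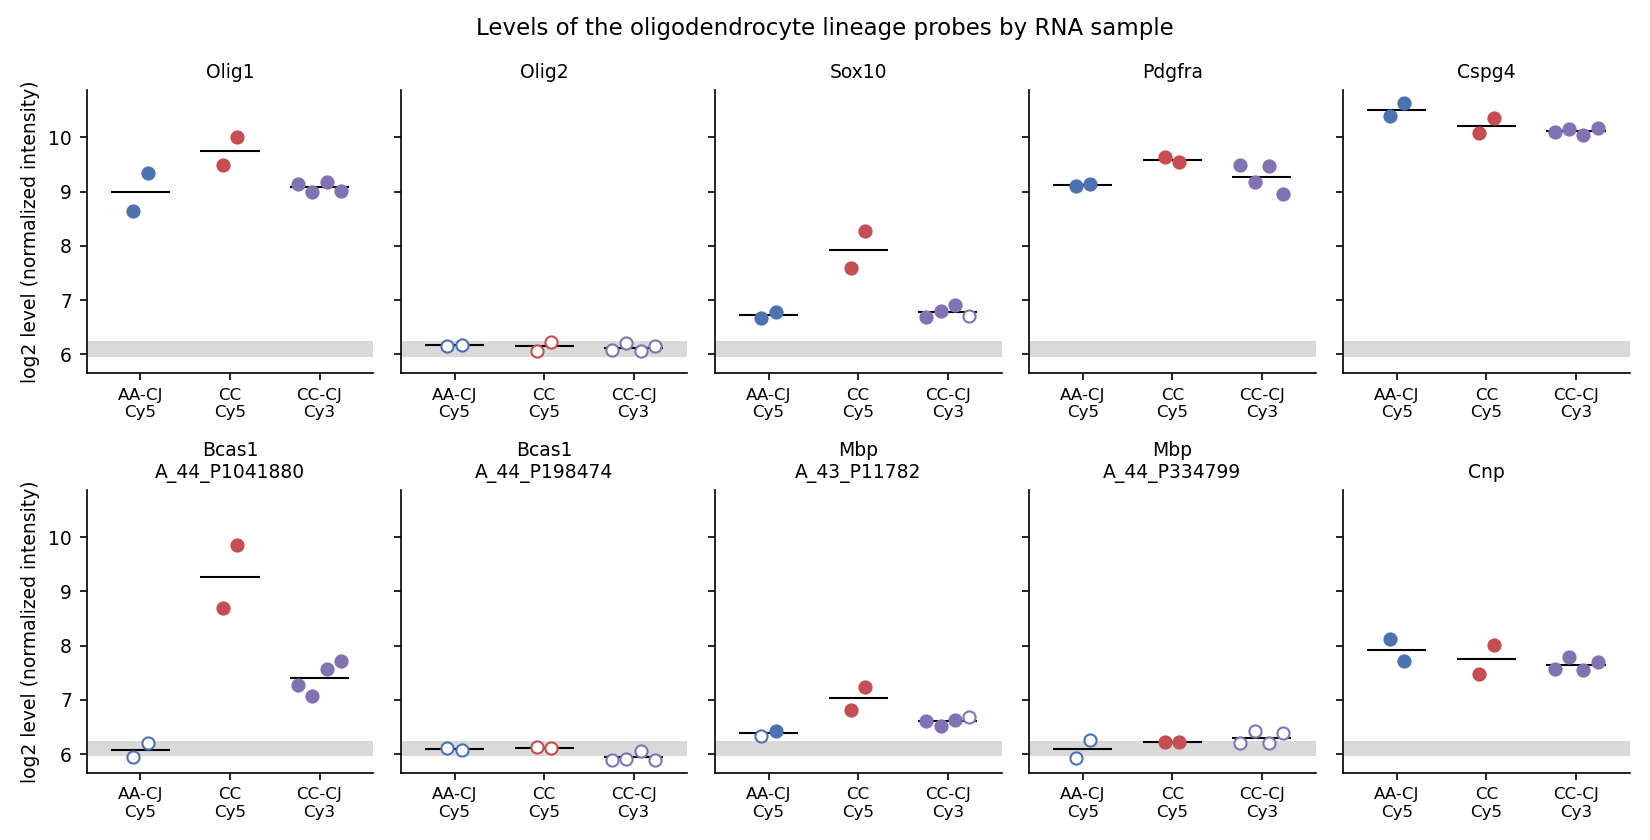
Normalized log2 level of each of the 10 probes (y axis) in the 2 AA-CJ samples and 2 CC samples, both read in Cy5, and the 4 CC-CJ channels, read in Cy3 (x axis, points in order of array). Open points were not well above background, lines are group means, and the grey band is the range of the lowest level well above background per channel (5.96 to 6.24). Bcas1 and Sox10 stand highest in CC, and Olig2 and the second probe of Bcas1 have open points only.

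Bcas1 differed more between the RNAs than any of the other 6 members tested. Its product is a protein of premyelinating and early myelinating oligodendrocytes. Of its 2 probes, the one at chr3:161395111-161395170 (rn4) was kept. The level of Bcas1 on this probe was 8.70 and 9.85 in CC and 7.27, 7.06, 7.56 and 7.71 in CC-CJ. The values of AA-CJ were 5.95 and 6.21 and were not well above background. The 3 RNAs did not overlap: both CC samples were highest, the 4 CC-CJ channels came next, and both AA-CJ samples were at the background.

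Bcas1 rose in CC versus AA-CJ, by a log2 difference of 2.72 (SE 0.32), with an adjusted p of 0.00806 in limma. The fitted size, 6.61-fold, was taken through CC-CJ on each array and is uncertain, since AA-CJ was not well above background. For that reason a bound was taken from the levels, with CC at least 8.91-fold higher. That bound holds on the scale of levels only, where the CC-CJ channels of the CC arrays (7.56 and 7.71) were above those of the AA-CJ arrays (7.27 and 7.06). This call was made without each replicate in turn too, with differences of 2.22 to 3.23. Bcas1 fell in CC-CJ versus CC, with M of -1.14 and -2.14 and a difference of -1.64 (SE 0.226, 3.11-fold lower, adjusted p of 0.0154 in limma). Without CC replicate 2 it was -1.14 and without CC replicate 1 it was -2.14, and both passed. With Agilent's own log ratio in place of M, neither call on Bcas1 was made, although the differences were larger (6.51 in CC versus AA-CJ and -2.13 in CC-CJ versus CC, with adjusted p of 0.0529 and 0.216 in limma).

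After cold jet, Bcas1 stayed above astrocytes alone in value. M of Bcas1 was 1.31 and 0.86 in CC-CJ versus AA-CJ, and the levels on these 2 arrays put CC-CJ at least 2.07-fold higher. The fitted difference of 1.09 (SE 0.226) did not pass in limma, with an adjusted p of 0.0562. It passed with the replicate number as a block and when only these 2 arrays were fitted (adjusted p of 0.0408 and 0.00378 in limma). Without AA-CJ replicate 1 it was 0.86, with an adjusted p of 0.232 in limma. With an offset of 16 in background correction the fitted difference was 1.72 (adjusted p of 0.0389 in limma). With Agilent's own log ratio it was 4.38 and did not pass (adjusted p of 0.0809 in limma). The methods of the study used limits of 2 SD over all probes for regulated mRNAs, and here such limits were computed from M. On both arrays M was above the upper limit (0.473 and 0.431). On both CC arrays M was below the lower limit (-0.42 and -0.55), and the methods kept mRNAs with that second property out of the regulated set. They also asked that probes of the same mRNA give comparable results. M of the second probe of Bcas1 was -0.21 and -0.16 on the AA-CJ arrays.

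The second probe of Bcas1 (rn4, chr3:161395746-161395805) lies within the same gene and was not well above background in any channel, with levels of 5.89 to 6.12. The values of Bcas1 above thus come from 1 of its 2 probes. When both probes were averaged without a filter, the difference in CC versus AA-CJ was 1.34 and in CC-CJ versus CC it was -0.89, and both passed in limma (adjusted p of 0.0187 and 0.0246). In CC-CJ versus AA-CJ the averaged difference was 0.45 and did not pass (adjusted p of 0.151 in limma).

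Pdgfra, the receptor through which platelet-derived growth factor keeps progenitors dividing, differed less. It was read by 1 probe (rn4, chr14:35369708-35369767). The level of Pdgfra was 9.63 and 9.55 in CC, 9.10 and 9.14 in AA-CJ, and 9.49, 9.17, 9.48 and 8.95 in CC-CJ. Both CC samples were above the others, and CC-CJ spanned AA-CJ. From AA-CJ to CC the difference was 0.59 (SE 0.193), with an adjusted p of 0.188 in limma, and without CC replicate 2 it was 0.36. M was -0.15 and -0.60 in CC-CJ versus CC and 0.39 and 0.03 in CC-CJ versus AA-CJ, and neither difference passed in limma (adjusted p of 0.243 and 0.406).

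Cspg4, which encodes the proteoglycan NG2, had the opposite order to Pdgfra in CC and AA-CJ. It was read by 1 probe (rn4, chr8:60645806-60645865). The level of Cspg4 was 10.38 and 10.63 in AA-CJ, 10.08 and 10.35 in CC, and 10.10, 10.16, 10.05 and 10.16 in CC-CJ. AA-CJ was above every CC and CC-CJ sample. In CC-CJ versus AA-CJ, M was -0.28 and -0.47, and the difference of -0.37 (SE 0.0906, 1.30-fold lower) did not pass in limma (adjusted p of 0.0745). Between CC and AA-CJ the difference was -0.26 (95% interval -0.57 to 0.04), and in CC-CJ versus CC it was -0.11 (-0.33 to 0.11). With 1 replicate left out these ranged from -0.36 to -0.17 and from -0.19 to -0.035. Median centring gave -1.52 in CC-CJ versus AA-CJ and -1.23 in CC-CJ versus CC (adjusted p of 4.46e-05 and 8.41e-05 in limma). Relative to the median of all genes these were -1.03 and -0.64.

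Markers of the other cells that use these receptors were read beside them. Of 8 markers of meningeal fibroblasts, 5 were tested, and their summed linear level was 62507 to 63587 in CC, 55937 to 58307 in AA-CJ and 53051 to 56531 in CC-CJ. Dcn, a matrix proteoglycan, was higher in CC than in AA-CJ by 0.66 (SE 0.118, adjusted p of 0.0420 in limma), in the direction of the values of Pdgfra. In CC-CJ versus CC, Dcn fell by 0.77 and Col1a2, a chain of type I collagen, fell by 0.59. Lum and Slc6a13 were not well above background. Of 9 mural markers, 5 were tested, with sums of 13555 to 16788 in CC, 16539 to 20012 in AA-CJ and 19737 to 22595 in CC-CJ. Most of this sum was Tagln, an actin-binding protein, at 13.31 to 14.17. It was the 1 mural gene called (0.60 higher in CC-CJ versus CC, where 0.0983% of all genes were higher). Rgs5, a marker of pericytes, was at 7.05 and 7.18 in CC and at 6.43 in both AA-CJ samples, a difference of 0.57 that did not pass in limma (adjusted p of 0.0580). The other 4 mural markers tested had values below 0 in that comparison, and the median of the 5 was -0.014. Kcnj8 and Abcc9, which also mark pericytes, were not well above background. The part of such cells in the values of Pdgfra and Cspg4 was not tested.

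Mbp, which encodes the basic protein that holds the layers of compact myelin together, had levels close to the background in all RNAs. It was read by 2 probes (rn4). On the probe at chr18:79055910-79055969, the level of Mbp was 6.81 and 7.24 in CC, 6.34 and 6.43 in AA-CJ, and 6.60, 6.52, 6.63 and 6.68 in CC-CJ. CC was above CC-CJ, and CC-CJ was above AA-CJ, with 1 of the 2 AA-CJ values and 3 of the 4 CC-CJ values well above background. The other probe, whose positions span 1939 bases (chr18:79044276-79046214), was well above background in CC only, at 6.22 and 6.23. It gave no order, since the values of AA-CJ were 5.92 and 6.27 and those of CC-CJ 6.20 to 6.43. Both probes were averaged for the test. The difference was 0.35 (SE 0.121) in CC versus AA-CJ, 0.20 in CC-CJ versus AA-CJ and -0.15 in CC-CJ versus CC, and none passed in limma (adjusted p of 0.203, 0.229 and 0.416). On the first probe alone the difference was 0.55 in CC versus AA-CJ and -0.37 in CC-CJ versus CC. With Agilent's own log ratio the averages were 1.79 in CC versus AA-CJ, 1.08 in CC-CJ versus AA-CJ and -0.71 in CC-CJ versus CC, and none passed. With median centring CC-CJ versus AA-CJ was 0.38, which passed (adjusted p of 0.0281 in limma). The size of these differences is uncertain, since AA-CJ was dim on 1 array for the first probe and on both for the other.

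Cnp, an enzyme of myelin and of oligodendrocytes before they make myelin, gave no order of the RNAs. It was read by 1 probe (rn4, chr10:89524880-89524939). The level of Cnp was 7.48 and 8.01 in CC, 8.13 and 7.71 in AA-CJ, and 7.57, 7.79, 7.54 and 7.70 in CC-CJ. All 3 ranges overlapped. M was -0.56 and 0.08 in CC-CJ versus AA-CJ and 0.06 and -0.31 in CC-CJ versus CC, so that the 2 arrays of each comparison had opposite signs. The 95% interval of the difference in CC versus AA-CJ ran from -0.66 to 0.43.

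**Figure D2:**
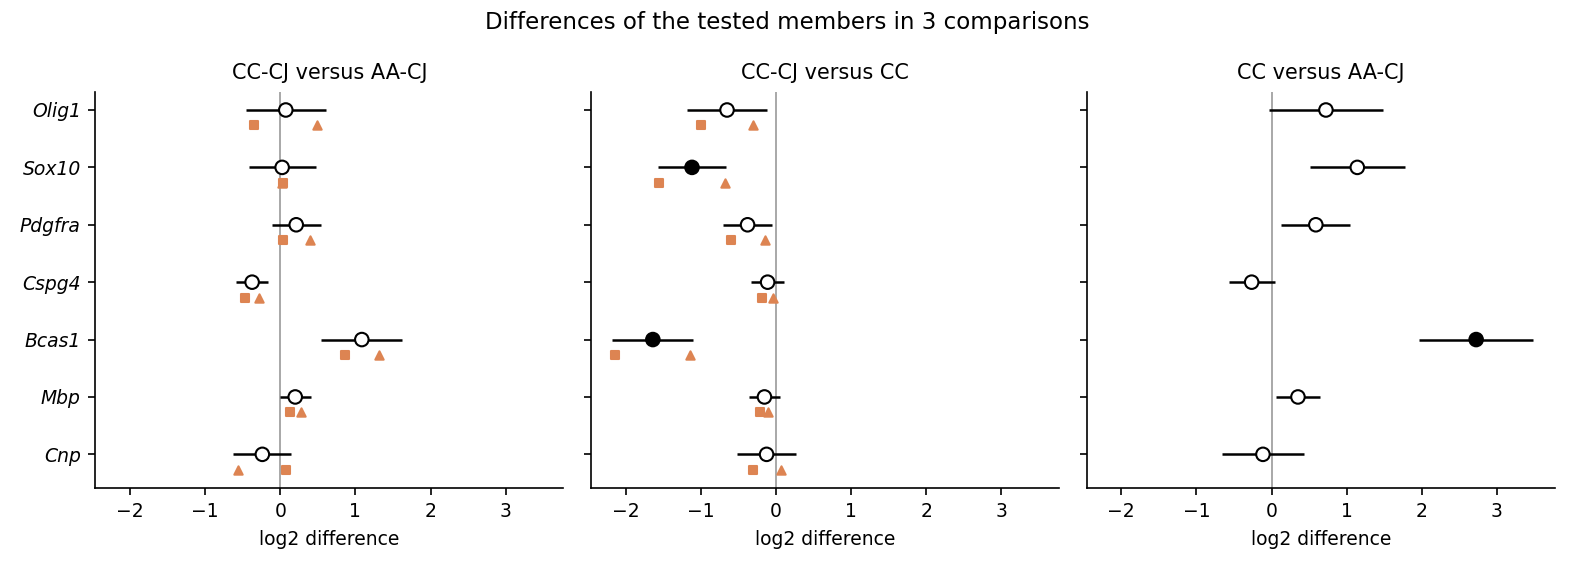
Fitted log2 difference (x axis) of the 7 members tested (y axis) in the 3 comparisons, with 95% intervals from limma as lines. Filled circles passed an adjusted p of 0.05 (Sox10 and Bcas1 in CC-CJ versus CC, Bcas1 in CC versus AA-CJ), and orange triangles and squares are M of replicates 1 and 2.

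The counts over the members were read against those over all genes. In CC-CJ versus CC, 2 of 7 members were lower, against 2.26% of the 21361 genes, and 0 were higher, against 0.0983%. In either direction this was 2.36% of all genes. For CC versus AA-CJ, 1 of 7 was higher, against 2.58% of all genes, and 0 were lower, against 0.0796%, or 2.66% in either direction. The 1 member, Bcas1, passed the filter on dim probes through the RNAs in which it was higher, so that this count is a description only. In CC-CJ versus AA-CJ, limma called 0 of 7, against 1.94% of all genes higher and 1.16% lower, which is 3.1% in either direction.

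At an unadjusted p of 0.05 in limma, 2 of 7 members passed in CC-CJ versus AA-CJ, namely Bcas1 and Cspg4, against 22.6% of all genes. In CC-CJ versus CC this was 4 of 7 (Olig1, Sox10, Pdgfra and Bcas1) against 16.9%. In CC versus AA-CJ it was 4 of 7 as well (Sox10, Pdgfra, Bcas1 and Mbp) against 17.8%, where Bcas1 was not well above background in either AA-CJ sample, and Mbp was not in 1 of them on either probe.

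The members were also described by the order of their samples. Both CC levels were above both AA-CJ levels for 5 of 7 members (Olig1, Sox10, Pdgfra, Bcas1 and Mbp), against 24.9% of all genes. Bcas1 and Mbp were not well above background in every AA-CJ sample and passed the filter through RNAs in which they were higher, so that this count is a description only. Both were below for Cspg4, against 31.9%. M was below 0 on both arrays of CC-CJ versus CC for 6 of 7 members, all but Cnp, against 38.3% of all genes, and above 0 on both for 0, against 26.8%. Mbp passed the filter through CC alone, where it was higher, so that this count too is a description only. In CC-CJ versus AA-CJ, M was above 0 on both arrays for 4 members (Sox10, Pdgfra, Bcas1 and Mbp), against 29.4%, although the fitted differences of Sox10 and Pdgfra changed sign with median centring. Since Bcas1 and Mbp are among these 4, the same limit holds. M was below 0 on both arrays for Cspg4, against 36.2%. The median difference over the 7 members was 0.07 in CC-CJ versus AA-CJ, -0.38 in CC-CJ versus CC and 0.59 in CC versus AA-CJ, beside -0.02, -0.02 and 0.002 over all genes.

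Progenitor and lineage genes were set against myelin genes on each array. The progenitor side was the median M of Olig1, Sox10, Pdgfra and Cspg4, and the myelin side that of Mbp and Cnp. Olig1 and Sox10 are lineage factors, and mature cells still carry Sox10, so that the first side is not restricted to progenitors. In CC versus AA-CJ, Sox10 and Olig1 had its highest values (1.14 and 0.72), beside Pdgfra (0.59) and Cspg4 (-0.26). In CC-CJ versus CC they had its lowest (-1.12 and -0.65), beside -0.38 and -0.11. Progenitor minus myelin was 0.35 and -0.26 on the AA-CJ arrays, a mean of 0.04 ± 0.433 (SD, n = 2), with no common sign. On the CC arrays it was -0.21 and -0.54, a mean of -0.38 ± 0.236 (SD, n = 2), which was -0.099 with Agilent's own log ratio and -1.07 with median centring. There the progenitor side was at -0.51 and the myelin side at -0.14 on average over both arrays. For CC versus AA-CJ the progenitor side was at 0.54 and the myelin side at 0.12, a difference of 0.42 with an SD of 0.493. It was -0.16 with Agilent's own log ratio and 0.11 to 0.73 with 1 replicate left out, and the values are a description with no test.

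The 2 CC samples differed from each other at these genes. The level was higher in CC replicate 2 than in replicate 1 for 6 of 7 members, with a median gap of 0.53, whereas it was higher for 43.4% of all genes tested, with a median of -0.03. The gap was 1.15 for Bcas1, 0.68 for Sox10, 0.53 for Olig1 and for Cnp, 0.27 for Cspg4 and 0.22 for Mbp. Pdgfra, with -0.08, was the exception. The gap was above 0 for 12 of 13 neuron markers too, with a median of 0.12, and for 3 of 7 microglia markers, with a median of -0.02. In AA-CJ, replicate 2 was also higher for 6 of 7 members, with a median of 0.22, against 48.6% of all genes, 10 of 13 neuron markers and 6 of 7 microglia markers. The gap of Olig1 there was 0.70. These are gaps between 2 samples, and whether they lie in the cells or the RNA was not tested.

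**Figure D3:**
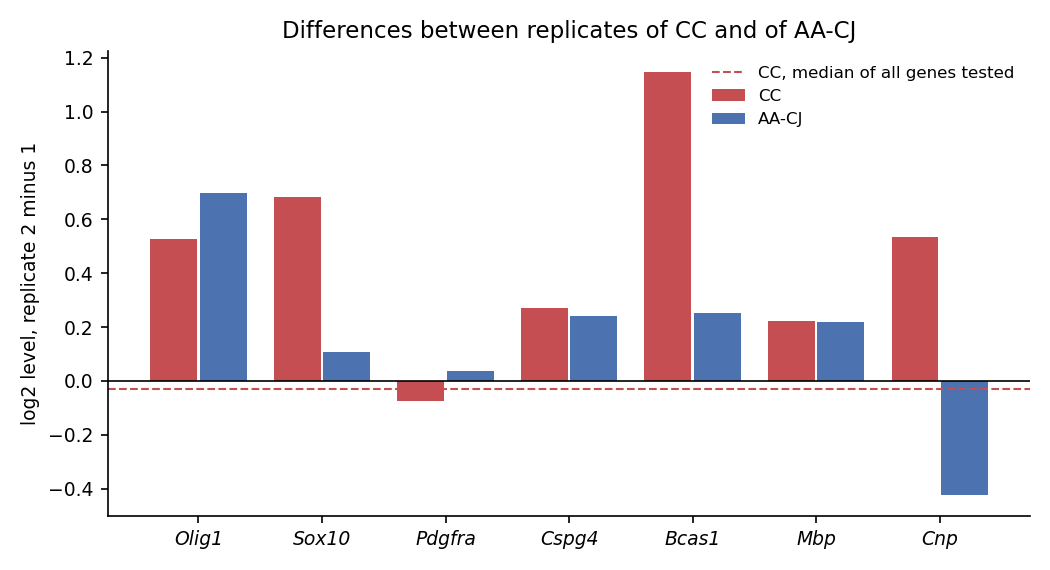
Log2 level in replicate 2 minus that in replicate 1 (y axis) for each member tested (x axis), in CC (red bars) and AA-CJ (blue bars). The dashed line is the median of all genes tested in CC (-0.03), and Bcas1 has the tallest bar (1.15 in CC).

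For members that were at least 2-fold higher in CC than in AA-CJ, the share of the excess left after cold jet was computed as in the methods for neuronal mRNA. It was 34.8% and 16.5% for Bcas1 on the 2 CC arrays (25.7% ± 12.9, SD, n = 2) and 16.8% and -0.489% for Sox10 (8.14% ± 12.2). A negative share means that CC-CJ on that array was below the mean of AA-CJ, which was read on the other arrays, and the CC-CJ value of Sox10 behind it was not well above background. Neuron markers that met the same rule numbered 8, and their medians on both arrays were 9.96% and 8.69%, with means per gene of 4.92% to 19.8%. The mean share of Bcas1 was above this range, and its share on each array was above that of the highest neuron marker there (23.9% and 15.6%). The mean share of Sox10 was inside the range, and its share on the second array was below that of the lowest neuron marker there (4.70%).

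Markers of neurons and of microglia were also called in CC-CJ versus CC, where Sox10 and Bcas1 fell, and in CC versus AA-CJ, where Bcas1 rose. Of 13 neuron markers tested, 9 were lower in CC-CJ versus CC, 8 were higher in CC versus AA-CJ and 5 were higher in CC-CJ versus AA-CJ, against 2.26%, 2.58% and 1.94% of all genes. A marker could pass the filter on dim probes through CC, where it was higher, so that these counts are a description only. In CC versus AA-CJ, Gap43 of growth cones rose by 4.79, Dcx of young neurons by 4.57 and L1cam, an adhesion protein of axons, by 4.07. The summed linear level of the 13 markers was 21349 to 22307 in CC, 8394 to 8858 in CC-CJ and 8839 to 9347 in AA-CJ. The 8 neuron markers that were at least 2-fold higher in CC than in AA-CJ had a share above 0, with CC-CJ between CC and AA-CJ as for Bcas1. Over all 13 markers, 9 had values above 0 in CC-CJ versus AA-CJ and 4 had values below 0, the lowest at -0.27. Gad1 and Slc17a7, which mark neurons that release GABA and glutamate, were not well above background.

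Of 7 microglia markers tested, 5 were lower in CC-CJ versus CC, 5 were higher in CC versus AA-CJ and 3 were higher in CC-CJ versus AA-CJ, against the same shares. Trem2, C1qa, C1qb, Tyrobp and Aif1 were the 5 called in the first 2 of these comparisons. Aif1 in AA-CJ, at 5.92 and 5.93, was below the lowest level well above background there (6.03 and 6.17). Trem2 in AA-CJ replicate 1 (5.99) and C1qa in AA-CJ replicate 2 (6.08) were below it too. Aif1 thus passed the filter through RNA in which it was higher, so that these counts are a description only. The sum of the 7 was 2657 to 2783 in CC, 1257 to 1624 in CC-CJ and 872 to 1002 in AA-CJ, which is also the order of Bcas1. Itgam and Cx3cr1 were not well above background. Of 10 astrocyte markers, all were tested, and only Aqp4, the water channel of astrocyte endfeet, was called. It was 0.51 higher in CC-CJ versus AA-CJ, where 1.94% of all genes were higher. The sum of the 10 astrocyte markers was 33909 to 39438 over all samples. Of 6 Schwann cell markers, Ngfr, Cdh19 and Foxd3 were not well above background. The other 3 were called in no comparison, against 2.36% to 3.1% of all genes in either direction. The part of these cell types in the results on Sox10 and Bcas1 was not tested.

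Other genes known in oligodendrocyte progenitors were mostly without a call. Of 32 such genes beside the members, 4 had no probe, 6 were not well above background and 22 were tested. In CC versus AA-CJ, 2 of 22 rose, against 2.58% of all genes. Both encode proteoglycans of the brain matrix. The level of Cspg5 was 7.59 and 8.31 in CC against 6.48 and 6.34 in AA-CJ, a difference of 1.196 (SE 0.203, adjusted p of 0.0345 in limma). The level of Vcan was 8.12 and 7.91 in CC against 6.61 and 6.79 in AA-CJ, a difference of 1.06 (SE 0.148, adjusted p of 0.0170 in limma). Neurons or astrocytes are known to express these genes as well. In CC-CJ versus CC, limma called 0 of 22, against 2.36%. In CC-CJ versus AA-CJ, 1 of 22 rose, against 1.94%, namely Fabp7, a lipid-binding protein that is also known in astrocytes and radial glia (0.42, SE 0.0789, adjusted p of 0.0472 in limma). The median difference of the 22 genes was 0.05 in CC versus AA-CJ, -0.09 in CC-CJ versus CC and -0.02 in CC-CJ versus AA-CJ.

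Of 48 other genes of premyelinating cells and myelin, 4 had no probe, 16 were not well above background and 28 were tested. Genes that are restricted to differentiating oligodendrocytes were among those not above background: Myrf, the factor that turns on myelin genes, Opalin, Ermn and Enpp6, and Ugt8 and Fa2h of myelin lipid synthesis. In CC versus AA-CJ, 4 of 28 rose, against 2.58% of all genes. Mag, an adhesion protein of the inner myelin layer, was at 7.26 and 7.56 in CC and at 6.25 and 6.19 in AA-CJ, a difference of 0.89 (SE 0.136). These AA-CJ values were close to the lowest level well above background there (6.03 and 6.17), so that the size is uncertain. A gene could pass the filter through CC, where it was higher, and the count of 4 is a description only. Zfp536, a zinc-finger protein, rose by 0.999 (SE 0.152), Enpp2, which makes lysophosphatidic acid, by 0.87 (SE 0.127) and Nfasc, an adhesion protein of the node of Ranvier that neurons share, by 0.72 (SE 0.135). The adjusted p of these genes in limma was 0.0203 to 0.0478.

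Mag, Zfp536 and Enpp2 also fell in CC-CJ versus CC, by 0.82, 0.68 and 0.61 on the log2 scale, and these were 3 of 28, against 2.26% of all genes. In CC-CJ versus AA-CJ, limma called 0 of 28, against 3.1% of all genes in either direction. Mog and Mobp, which encode myelin proteins and are named here after their values were seen, differed by -0.05 and 0.16 in CC versus AA-CJ and were not called. The median of the 28 genes was 0.14 in CC versus AA-CJ, -0.05 in CC-CJ versus CC and 0.08 in CC-CJ versus AA-CJ.

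**Figure D4:**
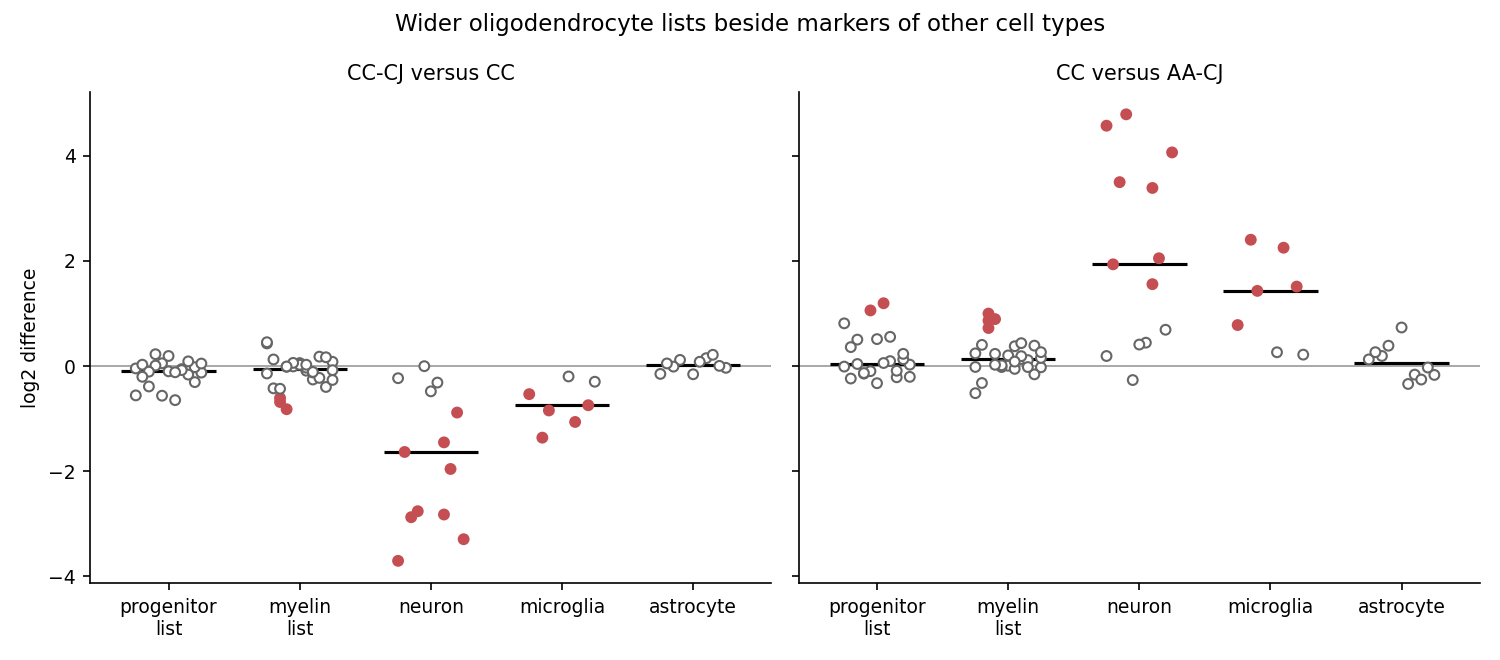
Fitted log2 difference (y axis) of each tested gene of the wider progenitor list (22), the wider myelin list (28) and the neuron (13), microglia (7) and astrocyte (10) markers (x axis), in CC-CJ versus CC and in CC versus AA-CJ. Red points passed an adjusted p of 0.05 in limma and black lines are medians. Both oligodendrocyte lists have medians near 0 with few called genes (0 for the progenitor list in CC-CJ versus CC), beside medians of -1.63 and 1.94 for neuron markers.

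The genes whose M over the 4 arrays was nearest to that of a called member were read among 7041 genes with a symbol and a signal well above background on every array, in Cy3 as in Cy5. For Bcas1 these were Vgf and Chgb, of secretory granules, and Cadps, a factor of granule release, at Euclidean distances of 0.747, 0.784 and 0.752. For Sox10 these were Tubb2b, a tubulin of young neurons, Hivep2 and Got1, at 0.149, 0.290 and 0.444. M of Tubb2b was -0.09 and 0.10 on the AA-CJ arrays and -0.73 and -1.51 on the CC arrays, close to the values of Sox10. Genes that were dim in any channel were outside this pool, as Bcas1 and Sox10 themselves were. Trem2 of microglia was among them, with M of 1.42 and 0.67 on the AA-CJ arrays and -1.30 and -1.42 on the CC arrays. M of Bcas1 was 1.31, 0.86, -1.14 and -2.14 there, so that near genes of other cell types can be missing. M of Bcas1 on the AA-CJ arrays and of Sox10 on the second CC array rests on a value not well above background. The distances are thus uncertain, and likeness over 4 arrays is a description.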

How the data were processed

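RNA of CC, CC-CJ and AA-CJ was hybridized to 4 two-colour Agilent whole rat genome arrays on 1 slide. The authors deposited spot intensities written by Feature Extraction 9.5.1.1 (mean signal and local background per channel, linear), beside Agilent's log10 ratio of Cy5 over Cy3. They also deposited a table of processed log2 ratios, whose columns correlated with M, turned to Cy5 over Cy3, at 0.907 to 0.953 across probes. Its centring is close to 0 (column medians -0.02 to 0.01), and its normalization by OLIN and OSLIN is taken from the methods. Positions (rn4) are from the scanner files. RefSeq accessions stood on 15681 probes, of which a RefSeq table of GRCr8 named 10835, and all other probes go by their name in the files.

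Here, intensities were corrected by normexp (offset 50) on mean signal and background median, and M was normalized by loess (span 0.3) in R 4.3.3 with limma 3.58.1. Control spots and 121 to 179 outlier spots per array were left out. A probe was kept if some RNA had it well above background on all of its arrays (24865 of 41012), and a gene's value is the mean over its kept probes. Levels per channel also got Aquantile scaling, and differences between RNAs were taken within a probe. Sums over marker lists add linear levels of different probes, and bright probes weigh most in them. All 4 arrays were fitted together (lmFit, eBayes; 2 residual and 4.71 prior degrees of freedom), with Benjamini-Hochberg adjustment over 21361 genes and a call at 0.05. The steps were tested on simulated data. A bound takes, per array, the higher of the dim probe's own level and the lowest level well above background.

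The members and lists were chosen with earlier results of these data known. All members are named, and of other lists only called genes, at most 8 per comparison by size, beside a few that the text singles out (Rgs5, Mog and Mobp after their values were seen, and markers that were dim). Nearest genes were read for the members called in any comparison, Bcas1 and Sox10. Same-numbered arrays were compared across genes for pairing (correlation -0.11), and alternatives for background, scaling, source of values, filter, block and left-out replicates were tried. Probe sequences and promoters were not used here. Some genes are not reported here.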

Additional observations from a re-analysis of the deposited data

How the results depend on the processing

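Of 334 other values of the members, 293 kept their direction and their side of the threshold, 6 lost a call, 25 gained one and 10 changed sign. The number of members lower in CC-CJ versus CC (2) was 1 with no background correction, 6 with median centring, 0 with Agilent's log ratio, and 0 when only probes above background in all channels were tested, which leaves out Sox10 and Bcas1. The number higher in CC versus AA-CJ (1) was 2 with median centring, the authors' value table and an adjusted p of 0.1, and 0 with Agilent's log ratio and the filter on all channels. The number higher in CC-CJ versus AA-CJ (0) was 1, Bcas1, with an offset of 16, the value table, only the arrays of the comparison and the brightest probe. It was also 1, Bcas1, with an adjusted p of 0.1, and with the limit of 2 SD without the other criteria of the methods. With median centring it was 2. The number lower there was 4 with median centring and 1 with an adjusted p of 0.1. The count of members called with 1 replicate left out was 1 to 2 (lower in CC-CJ versus CC), 0 to 1 (higher in CC-CJ versus AA-CJ) and 1 to 2 (higher in CC versus AA-CJ).

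Median centring, which does not remove the dependence on intensity, moved the median of all genes to -0.49, -0.59 and -0.01 in the 3 comparisons. It turned CC-CJ versus AA-CJ to -0.87 for Olig1, -0.078 for Sox10 and -0.77 for Pdgfra, and relative to the shift these were -0.39, 0.41 and -0.28. With it, progenitor minus myelin was -0.58 in CC-CJ versus AA-CJ and -1.07 in CC-CJ versus CC. It called 58.6% of all genes lower in CC-CJ versus AA-CJ and 64.1% in CC-CJ versus CC, and its counts of members and list genes lower are to be read against these shares. It called 8 progenitor and 14 myelin list genes lower and 2 myelin list genes higher in CC-CJ versus AA-CJ, and 15 progenitor and 19 myelin list genes lower and 1 myelin list gene higher in CC-CJ versus CC. With Agilent's log ratio, progenitor minus myelin was -0.099 in CC-CJ versus CC and -0.16 in CC versus AA-CJ. The value table gave 0.015 for Cspg4 and 0.029 for Cnp in CC-CJ versus CC, called 3 progenitor list genes higher in CC-CJ versus AA-CJ, and in CC-CJ versus CC called 1 myelin list gene higher and 2 progenitor list genes lower. Without a filter 1 progenitor list gene was lower there. The other causes were not tested.

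Sox10 in CC-CJ versus CC was not called with no background correction (adjusted p of 0.0521 in limma) or with Agilent's log ratio (-2.14, adjusted p of 0.175 in limma). With 1 replicate left out, CC-CJ versus AA-CJ ranged from -0.34 to 0.49 for Olig1 and from -0.56 to 0.080 for Cnp, CC-CJ versus CC of Cnp ranged from -0.31 to 0.063, and CC versus AA-CJ of Cnp ranged from -0.43 to 0.20, with 0.20 and 0.072 without AA-CJ replicate 1 and CC replicate 1. The share left after cold jet was 14.3% for Olig1 under a limit of 1.5-fold (29.8% and -1.23% on the 2 arrays), and 48.3% for Sox10 when AA-CJ was not subtracted.

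The replicate numbers were not taken to pair the arrays. With the replicate number as a block, 1 member (Bcas1) was higher in CC-CJ versus AA-CJ, and in CC-CJ versus CC the call on Sox10 was lost (adjusted p of 0.0510 in limma) and that on Olig1 gained. Crossed numbers, chosen after seeing the data, gave 1 member higher in CC-CJ versus AA-CJ and 2 in CC versus AA-CJ. Dim probes limit the values of Olig2, Mbp and the second probe of Bcas1.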
